A study of Mus musculus with 9 samples.

Results

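The genes described here are Cyp1b1 and 7 other genes of the aryl hydrocarbon receptor (AhR) pathway, which make up 8 of the 19938 genes measured. Cyp1b1 was chosen by its measured levels on these arrays, far higher in both mutants than in WT MEFs, and the other 7 (Ahr, Arnt, Ahrr, Tiparp, Cyp1a1, Cyp1a2 and Aldh3a1) for their known place in the pathway, to ask whether other AhR targets are higher as well. The choice of all 8 was made with earlier results of these data known. Each is read by 1 probe set annotated to that gene alone. TM MEFs are labelled PRDX4 KO with both ERO1alpha and ERO1beta mutated, DM MEFs carry the ERO1alpha and ERO1beta mutations without the PRDX4 knockout, and the third genotype is labelled wild type (WT). There were 3 Affymetrix Gene ST arrays of each. All 3 lines have the C57B/L6 background and were transformed with T antigen. The study's methods on MEF isolation describe control MEFs with 1 mutated Ero1α allele and Ero1β m/m, so that the mutated Ero1β may be shared by all groups, and give TM as Prdx4 m/y. Those methods mention both primary and immortalized MEFs. ERO1 and PRDX4 oxidise proteins in the endoplasmic reticulum. The ERO1 alleles are gene traps and the Prdx4 allele is a null. No AhR ligand is named among the additions to the medium. Neither source ties the 3 arrays of a line to separate cultures or embryos, so each p-value reflects only how far these 9 arrays scatter, and that scatter may be technical.

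AhR is a transcription factor of the basic helix-loop-helix PAS family that waits in the cytosol bound to HSP90 and its partners. Planar aromatic pollutants and several tryptophan metabolites bind it, whereupon it enters the nucleus, pairs with ARNT and binds xenobiotic response elements near its target genes. The CYP1 monooxygenases are its best-known targets and clear many of its ligands, while AHRR and TIPARP are induced by AhR and act back on it. In mouse embryo fibroblasts CYP1B1 is known as the main CYP1 enzyme.

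Levels are the authors' deposited RMA values on the log2 scale, and folds are differences of their means. A single limma fit covered all genes, and a call needed both a Benjamini-Hochberg adjusted p below 0.05 and more than 1.5-fold change. Array medians were 7.62 to 7.72. Of the mutated genes, Ero1a was 9.06 in TM and 9.46 in DM against 11.86 in WT, and Prdx4 was 6.30 in TM, 10.68 in DM and 10.56 in WT MEFs. Ero1b was 7.86 to 8.02 in TM, 7.68 to 7.72 in DM and 7.52 to 7.72 in WT, with no call, and whether its probes lie in the altered part of the transcript was not examined. Xist, which silences an X chromosome in female cells, was 5.72 in TM and 12.56 in DM MEFs against 5.70 in WT MEFs, and this difference and the genotype of DM cannot be told apart. Of 10 fibroblast markers, Vim and Fn1 were bright in all 3 genotypes, and Lum alone had a mean under the 95th percentile of olfactory receptor genes. No detection call comes with these values, so the levels of 1027 olfactory receptor genes, which fibroblasts do not use, were taken to show where silent genes lie. Their gene means ran from 3.64 at the 5th percentile to 6.89 at the 95th. Probe sets differ in how strongly they bind, so this band sets no detection limit.

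Cyp1b1, which encodes a monooxygenase of estrogens, retinoids and polycyclic aromatic hydrocarbons, was 11.94, 11.93 and 11.98 in the TM arrays and 12.52, 12.55 and 12.60 in the DM arrays, against 6.57, 6.43 and 6.55 in the WT arrays. The WT arrays lie inside the band of olfactory receptor genes and all 6 mutant arrays far above it. The difference of the deposited log2 values was 5.43 in TM and 6.04 in DM MEFs. Since the WT level is not shown to be above that of silent genes, no linear fold is given for it. TM was below DM by less, with a log2 difference of -0.61, and of -0.58 without DM replicate 3. The gene was chosen by its levels on these arrays, so all 3 differences are given with no test.

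**Figure D1:**
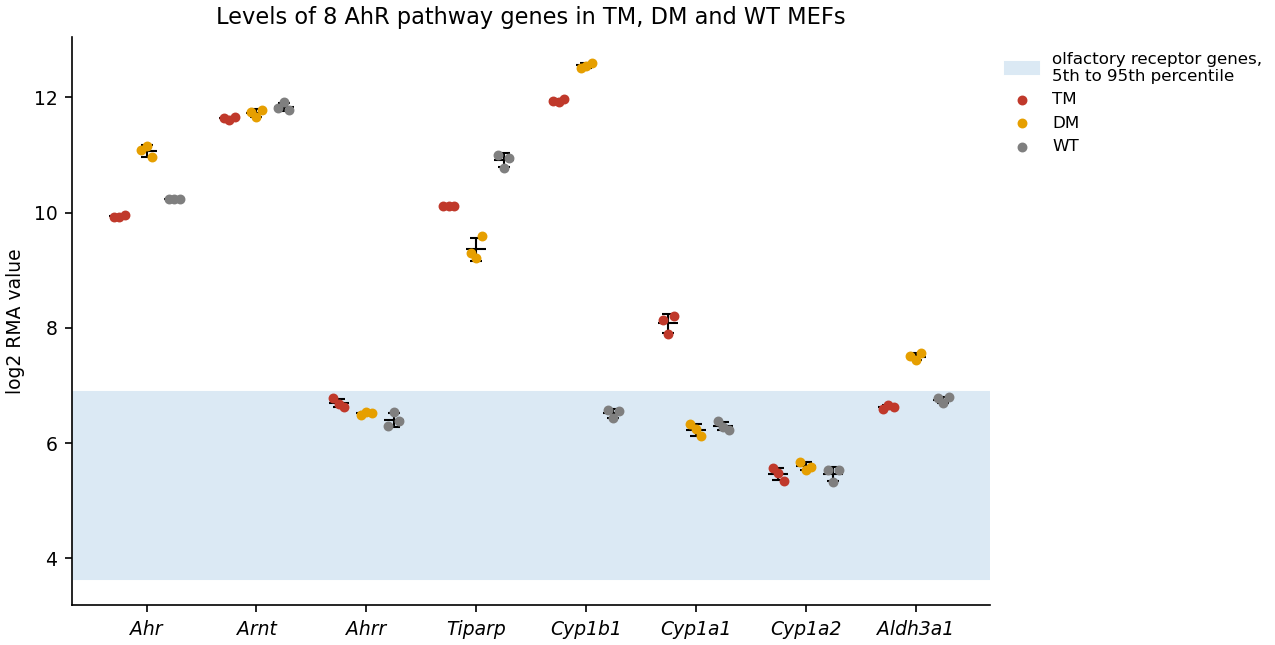
Log2 RMA value of each gene (y axis) in TM (red), DM (orange) and WT (grey) MEFs. Each point is 1 array, with the mean as a horizontal mark and the SD as a bar (n = 3 per genotype), and the blue band runs from the 5th to the 95th percentile of olfactory receptor genes. Cyp1b1 leaves the band in both mutants, Cyp1a1 in TM and Aldh3a1 in DM, while Ahrr and Cyp1a2 stay inside it.

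Of the 7 other genes, 1 rose and 1 fell in TM against WT, where 9.15% of all genes were called, 5.59% higher and 3.56% lower. In DM against WT 2 rose and 1 fell, where 10.9% of all genes were called, 5.28% higher and 5.67% lower. In TM against DM 2 were higher and 2 lower, where 8.29% of all genes were called, 4.68% higher and 3.61% lower. Both comparisons against WT use the same WT arrays. The median log2 fold change of the 7 was -0.12 in TM and 0.12 in DM, beside -0.029 and 0.025 over all genes. No gene of the 7 rose in both mutants, and the single gene called in both, Tiparp, fell.

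Cyp1a1, the AhR target that encodes the main inducible aryl hydrocarbon hydroxylase, was 8.13, 7.90 and 8.21 in the TM arrays, 6.33, 6.25 and 6.12 in the DM arrays and 6.38, 6.28 and 6.23 in the WT arrays. The TM arrays stand apart, whereas the DM and WT arrays overlap and lie inside the olfactory band. It rose by 1.78 in TM MEFs on the log2 scale (SE 0.084, adjusted p = 4.73e-09 from limma), a difference measured against WT arrays inside that band. In DM its log2 fold change was -0.064 with a 95% confidence interval of -0.25 to 0.12, whose upper bound lies below a 1.5-fold change, although Cyp1b1 was higher in DM than in TM. Compared directly, Cyp1a1 was higher in TM than in DM by 1.85 (SE 0.084, adjusted p = 3.92e-09 from limma), the opposite order from Cyp1b1.

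Cyp1a2, a neighbour of Cyp1a1 on chromosome 9 that is known as a liver enzyme, was 5.35 to 5.56 in TM, 5.53 to 5.67 in DM and 5.32 to 5.53 in WT MEFs. All 3 groups overlap inside the olfactory band. Its log2 fold change was 0.0041 in TM (95% confidence interval -0.16 to 0.17) and 0.13 in DM (-0.034 to 0.30), with no call. Cyp1a1 and Cyp1a2 are close paralogs, and the sources used here do not say whether their probes share targets.

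The promoters of 6 of the 8 genes are in the RefSeq promoter table of GRCm38.p6, each with 300 bases, most of them before the start. They were searched on either strand for GCGTG, the core of the xenobiotic response element, and for TNGCGTG, a longer form that contains that core. The core was in 5 of the 6, and in 32.4% of all 32851 promoters in the table. The longer form was in Ahrr, and in 5.07% of all promoters. Cyp1a2 had neither. Shown are the promoters of the pair of CYP1 genes that were higher in a mutant, and of Tiparp and Ahrr, induced by AhR yet lower or not called here, with the core on either strand in capitals.
Cyp1b1 (GRCm38.p6, chr17:79715012-79715311, minus strand): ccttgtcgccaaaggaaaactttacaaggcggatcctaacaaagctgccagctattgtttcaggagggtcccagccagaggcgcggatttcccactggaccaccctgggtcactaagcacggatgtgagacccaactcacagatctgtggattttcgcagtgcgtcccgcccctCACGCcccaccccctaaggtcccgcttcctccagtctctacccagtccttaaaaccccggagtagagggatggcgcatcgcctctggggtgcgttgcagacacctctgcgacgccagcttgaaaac
Cyp1a1 (GRCm38.p6, chr9:57697363-57697662, plus strand): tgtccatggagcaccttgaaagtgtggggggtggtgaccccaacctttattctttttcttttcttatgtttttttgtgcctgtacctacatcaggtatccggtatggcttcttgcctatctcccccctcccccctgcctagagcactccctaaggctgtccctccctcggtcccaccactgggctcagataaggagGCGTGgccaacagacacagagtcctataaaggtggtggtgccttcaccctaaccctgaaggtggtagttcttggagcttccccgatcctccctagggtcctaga
Tiparp (GRCm38.p6, chr3:65528197-65528496, plus strand): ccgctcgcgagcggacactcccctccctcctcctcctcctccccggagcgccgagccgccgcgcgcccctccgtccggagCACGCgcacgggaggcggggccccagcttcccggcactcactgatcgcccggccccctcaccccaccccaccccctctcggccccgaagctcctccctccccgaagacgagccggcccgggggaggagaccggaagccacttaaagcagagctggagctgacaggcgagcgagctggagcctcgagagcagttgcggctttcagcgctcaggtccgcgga
Ahrr (GRCm38.p6, chr13:74292282-74292581, minus strand): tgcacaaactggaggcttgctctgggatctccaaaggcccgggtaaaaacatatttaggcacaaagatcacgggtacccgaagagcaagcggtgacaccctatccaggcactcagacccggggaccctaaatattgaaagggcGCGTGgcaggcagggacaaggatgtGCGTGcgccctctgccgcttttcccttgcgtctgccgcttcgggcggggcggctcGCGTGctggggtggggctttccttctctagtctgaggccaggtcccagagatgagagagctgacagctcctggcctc
The core of Cyp1b1 is read on the opposite strand and begins 76 bases before the start, that of Cyp1a1 lies on the gene's own strand 54 bases before it, and that of Tiparp on the opposite strand 170 bases before it. Ahrr holds 3 cores on its own strand, at 107, 82 and 27 bases before the start. A core is a match of letters and not a bound site, and the enhancer of Cyp1a1 known from mouse cells lies farther upstream than this window.

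Ahr on chromosome 12, which encodes the receptor itself, was 9.92, 9.93 and 9.96 in the TM arrays and 11.08, 11.16 and 10.96 in the DM arrays, against 10.24 in each of the WT arrays. The genotypes do not overlap, with DM highest and TM lowest. Ahr rose by 0.82 in DM MEFs (SE 0.060, adjusted p = 2.76e-07 from limma), which is 1.77-fold. In TM its log2 fold change was -0.31 (adjusted p = 0.00146 from limma), short of the fold limit. In TM against DM it was -1.13 (SE 0.060, adjusted p = 1.65e-08 from limma). The 3 WT arrays hold 1 identical value, so the spread of Ahr is understated there.

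Arnt, which encodes the partner that AhR needs to bind DNA, was 11.64, 11.61 and 11.67 in TM, 11.74, 11.66 and 11.79 in DM and 11.81, 11.92 and 11.79 in WT MEFs. It was not called in any comparison. Its log2 fold change was -0.20 in TM (95% confidence interval -0.33 to -0.073, adjusted p = 0.0204 from limma) and -0.11 in DM (-0.24 to 0.020).

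Ahrr, which encodes the repressor that competes with AhR for ARNT, was 6.78, 6.67 and 6.63 in TM, 6.50, 6.54 and 6.52 in DM and 6.29, 6.54 and 6.38 in WT MEFs. All 9 values lie inside the olfactory band. Its log2 fold change was 0.29 in TM (95% confidence interval 0.14 to 0.44, adjusted p = 0.00655 from limma) and 0.12 in DM (-0.037 to 0.27), with no call in either.

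Tiparp, an AhR-induced gene whose product ADP-ribosylates AhR and dampens it, was 10.11 in each of the TM arrays and 9.29, 9.21 and 9.59 in the DM arrays, against 11.01, 10.77 and 10.94 in the WT arrays. No array of one genotype overlaps another, and DM is lowest. Tiparp fell by 0.80 in TM (SE 0.093, adjusted p = 2.36e-05 from limma) and by 1.54 in DM MEFs (SE 0.093, adjusted p = 4.39e-08 from limma). It was higher in TM than in DM by 0.74 (SE 0.093, adjusted p = 4.95e-05 from limma). The 3 TM arrays hold 1 identical value, so their spread is understated. The direction of Tiparp against WT was thus opposite to that of Cyp1b1 in both mutants.

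Aldh3a1 on chromosome 11, which encodes an aldehyde dehydrogenase of the classic AhR gene battery, was 6.59, 6.67 and 6.63 in the TM arrays and 7.51, 7.43 and 7.56 in the DM arrays, against 6.78, 6.70 and 6.79 in the WT arrays. DM stands alone above the olfactory band, and the TM arrays lie just below the WT arrays. It rose by 0.75 in DM (SE 0.058, adjusted p = 5.14e-07 from limma), measured against WT arrays inside that band, and its log2 fold change in TM was -0.12 (95% confidence interval -0.25 to 0.0030). In TM against DM it was -0.87 (SE 0.058, adjusted p = 1.49e-07 from limma).

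**Figure D2:**
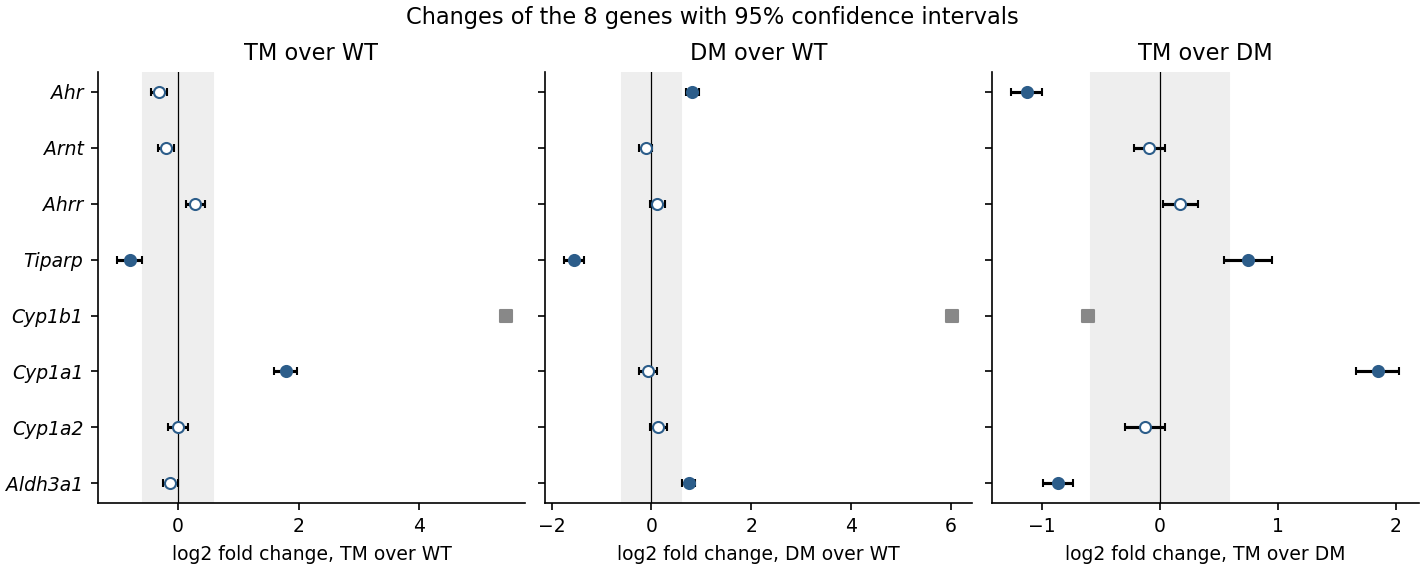
Log2 fold change of the 8 genes (x axis) in TM over WT, DM over WT and TM over DM. Bars are 95% confidence intervals, filled circles are limma calls, open circles are not called, grey squares mark Cyp1b1, which was not tested, and the grey zone is under 1.5-fold. Cyp1a1 lies at 1.78 in TM and -0.064 in DM, Aldh3a1 at -0.12 and 0.75, and Tiparp is below 0 in both.

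Beyond these genes, 14 of 19 further genes known to be induced through AhR were measured by a probe set of their own. In TM against WT 3 rose and 1 fell, 28.6% of them, where 9.15% of all genes were called. In DM against WT 3 rose and 3 fell, 42.9% of them, where 10.9% of all genes were called. The median log2 fold change of the 14 was 0.054 in TM and -0.011 in DM, beside -0.029 and 0.025 over all genes. Compared directly, 4 were higher and 1 lower in TM than in DM, 35.7% of them, beside 8.29% over all genes. Ereg and Xdh rose in both mutants. Ereg, the EGF receptor ligand gene, averaged 11.20 in TM and 9.77 in DM against 9.04 in WT MEFs, with log2 fold changes of 2.17 in TM and 0.74 in DM (limma adjusted p = 6.57e-10 and 1.54e-05). Xdh, the xanthine oxidoreductase gene, was 8.04 to 8.30 in TM and 8.45 to 8.56 in DM against 6.93 to 7.13 in WT arrays, with log2 fold changes of 1.12 in TM and 1.49 in DM. The mutant arrays of both genes lie above all their WT arrays.

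Other genes of the battery were called in 1 mutant against WT, and their direct comparisons of TM with DM were called as well. Cyp2s1, a P450 gene inducible through AhR, was 8.79 to 9.15 in DM against 7.12 to 7.29 in WT arrays and rose by 1.79 (adjusted p = 6.91e-09 from limma), while its TM arrays, 6.93 to 7.10, gave a log2 fold change of -0.19, and TM against DM was -1.99. Ptgs2, which encodes cyclooxygenase-2, fell by 2.43 in DM, where it was 10.86 to 10.92, against 13.31 to 13.34 in WT arrays, and had a log2 fold change of 0.20 in TM, with TM against DM at 2.62. The next 3 genes were chosen after their values were seen. Nqo1, the quinone reductase gene of the battery, fell by 1.19 in DM (adjusted p = 1.32e-07 from limma) and had a log2 fold change of -0.22 in TM, with TM against DM at 0.97. Serpinb2, which encodes a plasminogen activator inhibitor and whose DM and WT arrays lie inside the olfactory band, rose by 1.07 in TM. Its log2 fold change was 0.021 in DM, with TM against DM at 1.05. Socs2, a suppressor of cytokine signalling, differs from these in being called in both mutants, and fell by 0.62 in TM and 0.79 in DM, the TM call being lost with cyclic loess, with the mean of its 2 probe sets or without WT replicate 2.

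**Figure D3:**
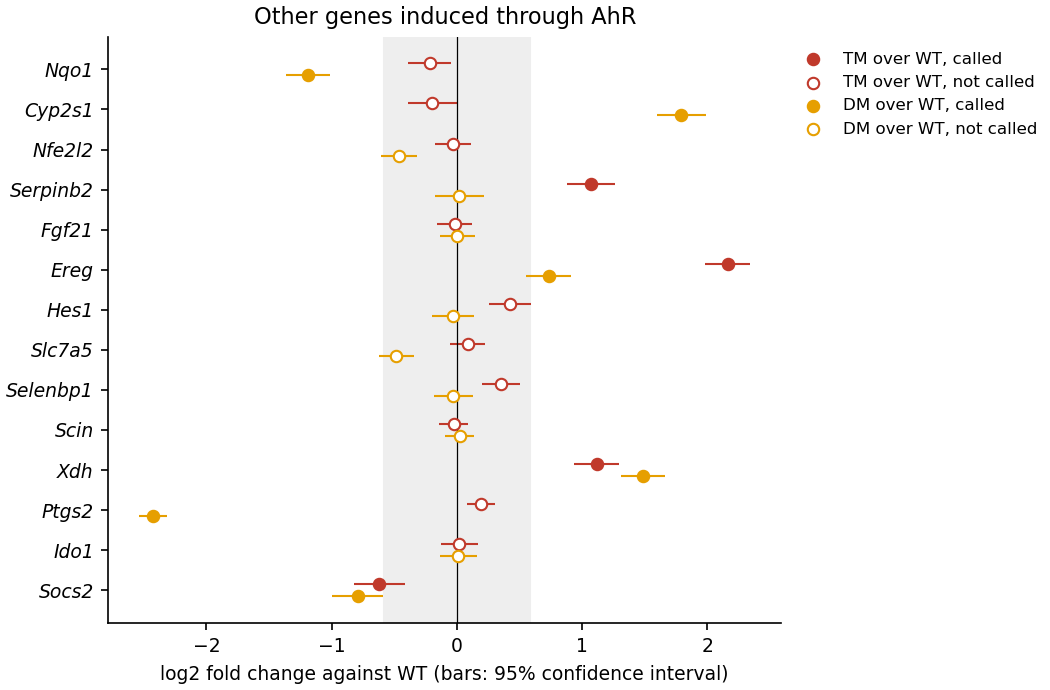
Log2 fold change against WT (x axis) of 14 other genes induced through AhR, in TM (red) and DM (orange) MEFs. Bars are 95% confidence intervals, filled circles are calls, open circles are not called and the grey zone is under 1.5-fold. Ereg and Xdh lie to the right in both mutants and Socs2 to the left, while Cyp2s1, Ptgs2 and Nqo1 are filled for DM but not TM and Serpinb2 for TM but not DM.

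Among 14 measured chaperones and coregulators of AhR, none rose and 2 fell in TM, and 1 rose and 2 fell in DM against WT. The shares called were 14.3% in TM and 21.4% in DM, beside 9.15% and 10.9% over all genes. The falls were those of Tbl3, a gene for a WD-repeat protein, with log2 fold changes of -0.95 in TM and -1.02 in DM, and of Src, the kinase gene whose product is found in the AhR complex, with -0.83 and -0.80. Ncoa1, a coactivator gene, rose by 0.81 in DM and had a log2 fold change of 0.16 in TM. The HSP90 gene Hsp90aa1 and the cochaperone gene Ptges3 were not called in any comparison. Each has 3 probe sets, and these values are from the brightest alone.

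Of 12 measured bHLH-PAS relatives of AhR and ARNT, 4 rose and none fell in TM, and 2 rose and 1 fell in DM against WT. The shares called over all genes were 9.15% in TM and 10.9% in DM against WT. Sim2, a developmental member of the family, was 11.07, 11.09 and 11.11 in TM and 7.76, 7.93 and 7.93 in DM arrays, against 7.03, 7.16 and 6.94 in WT arrays. Its log2 fold change was 4.05 in TM (adjusted p = 8.22e-13 from limma) and 0.83 in DM (adjusted p = 1.08e-06 from limma). Arnt2, the paralog of Arnt, was 9.88 to 9.96 in TM and 9.60 to 9.74 in DM against 8.39 to 8.47 in WT arrays, and rose in both (limma adjusted p = 9.71e-10 and 6.68e-09), whereas Arnt was not called. Npas4 rose by 0.94 in TM, measured against a WT mean of 6.81 inside the olfactory band. Epas1, which encodes HIF-2α, rose by 0.62 in TM but was not called with median centring (0.55) or without WT replicate 1 (0.57). Arntl, the circadian partner of Clock, fell by 0.71 in DM and was named after its value was seen.

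None of 10 measured enzymes that make or break tryptophan-derived AhR ligands was called, among them Ido2, Tdo2 and Kynu. Over all genes 9.15% were called in TM and 10.9% in DM against WT, and 8.29% in TM against DM. The counts of the 10 were also 0 at an unadjusted p under 0.05 with the fold limit kept and with the methods' t-test. With median centring or quantile normalization 1 fell in DM. Tdo2, Kynu, Kmo, Aadat and Tph1 lie inside the olfactory band on all arrays, so the absence of calls says little about them. Ido2, Haao, Kyat1, Kyat3 and Afmid lie above it. Of 12 genes for P450 electron donors and heme supply, 1 rose in DM, the cytochrome b5 gene Cyb5a, by 0.76. This is 8.33% of them, beside 10.9% over all genes. None of the 12 was called in TM, where 9.15% of all genes were. At an unadjusted p that count was also 0, and 1 fell in TM with median centring. Among 7 enzymes that act on CYP1 products, Ephx1, the microsomal epoxide hydrolase gene, rose by 2.09 in TM and 2.12 in DM. Gstm1, a glutathione transferase gene, rose by 1.01 in DM. The shares called were 14.3% in TM and 28.6% in DM, beside 9.15% and 10.9% over all genes.

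Cyp1b1 was set beside the other cytochrome P450 genes. Of 86 others, 6 rose and none fell in TM, 6.98% of them, and 3 rose and 2 fell in DM, 5.81% of them. Both are under the shares over all genes, 9.15% and 10.9%. Many P450 genes, such as Cyp2a22, Cyp2b9 and Cyp11a1, lie inside the olfactory band on all arrays. The lower share is thus not read as a trait of the family. The largest log2 fold changes of these 86 were 2.12 for Cyp7b1, an oxysterol hydroxylase gene whose WT arrays also lie inside the olfactory band, in TM, and 1.79 for Cyp2s1 in DM. Cyp7b1 rose in DM too, by 1.13. Cyp2j6 went opposite ways, rising by 0.82 in TM and falling by 1.17 in DM, although its 3 WT arrays hold 1 identical value. Cyp2r1, which encodes a vitamin D hydroxylase, and Cyp4a12b rose by 1.03 and 0.98 in TM, and Cyp4f13 by 0.77 in DM. All arrays of Cyp2r1 and Cyp4a12b lie inside the olfactory band, the TM arrays included, as do the DM arrays of Cyp2j6. The other genes called, chosen after their values were seen, were Cyp20a1, which rose by 0.60 in TM but was not called with median centring (0.52) or without TM replicate 2 (0.55), WT replicate 1 or WT replicate 2 (both 0.58), and Cyp51, a sterol demethylase gene, which fell by 0.74 in DM. Each count of 0 in these gene lists was also 0 at an unadjusted p under 0.05 with the fold limit kept.

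**Figure D4:**
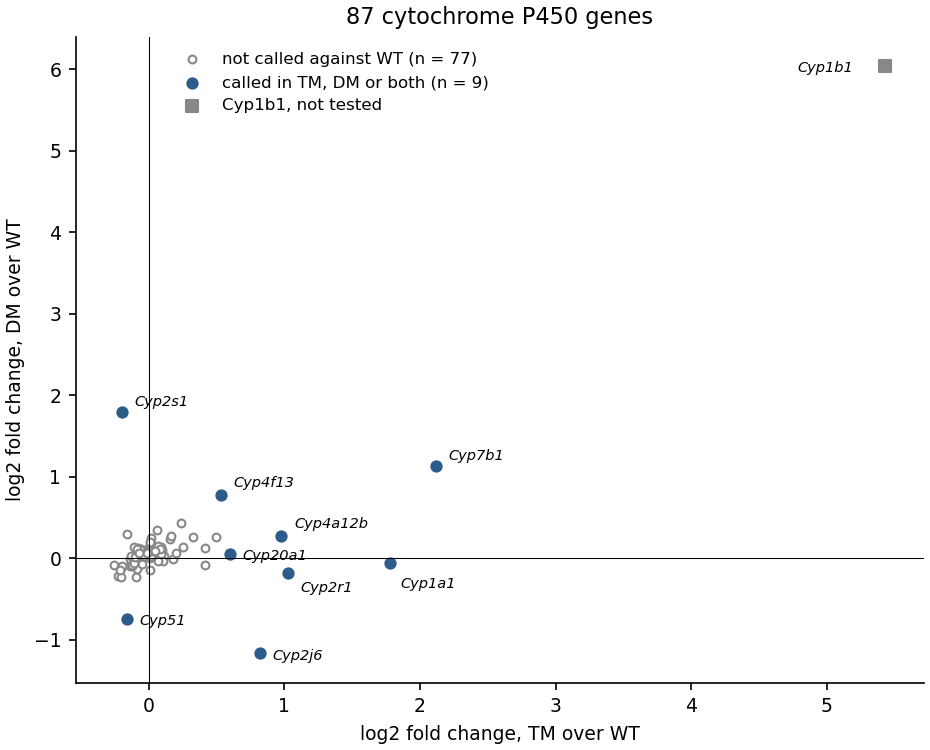
Log2 fold change against WT of 87 cytochrome P450 genes in TM (x axis) and DM (y axis). Filled circles are genes called in TM, DM or both, open circles were not called and the grey square is Cyp1b1, which was not tested. Cyp1b1 at 5.43 and 6.04 lies far from the other 86, most of which sit near 0 on both axes, and both axes use the same WT arrays.

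The genes whose profile over the 9 arrays lay nearest to that of Cyp1b1, by Euclidean distance after each gene's mean was subtracted, were Mgst1 (distance 1.10 on the log2 scale), Lcn2 (1.41), Pcdh7 (1.84), Sorbs2 (1.87) and Pcdh9 (2.05). Their Pearson correlations with Cyp1b1 over the 9 arrays ranged from 0.988 to 0.999, as a description, since the arrays form 3 groups and the genes were picked for likeness. Mgst1, a microsomal glutathione transferase gene, was 9.90 to 10.12 in TM and 11.21 to 11.30 in DM against 5.26 to 5.60 in WT arrays. Lcn2, the lipocalin 2 gene, was 13.11 to 13.17 in TM and 12.74 to 12.77 in DM against 7.68 to 7.79 in WT arrays. Among the 5, Lcn2 alone had a higher mean in TM than in DM, by 0.37, which was not called. Of the 7 AhR genes none was among these 5. None of the 7 had risen in both mutants, so this outcome was fixed beforehand and adds nothing.

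**Figure D5:**
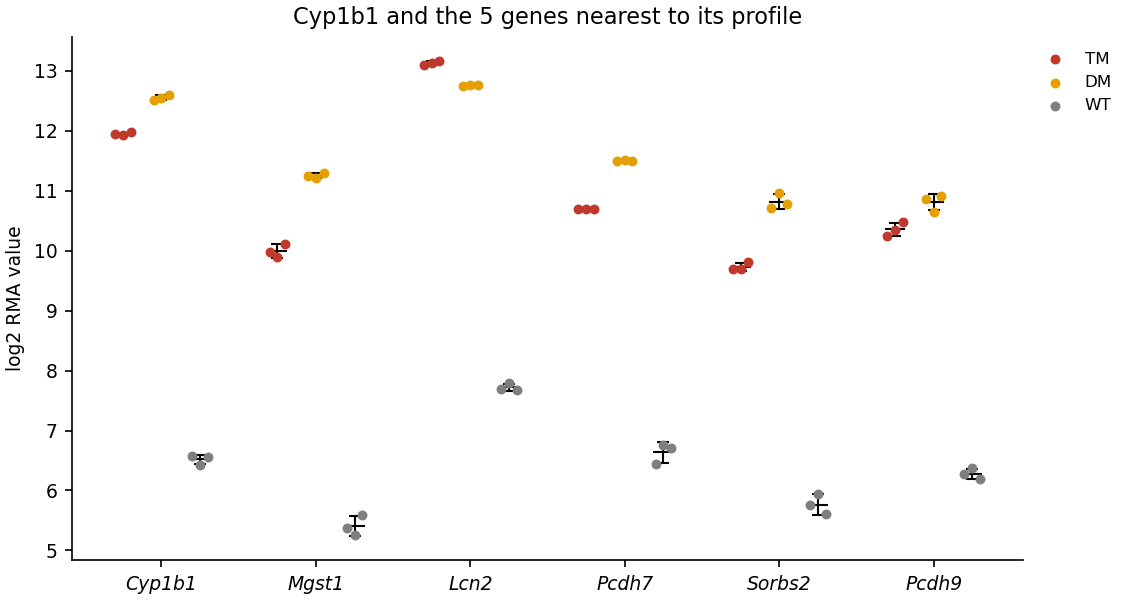
Log2 RMA value (y axis) of Cyp1b1 and the 5 genes nearest to its profile in TM (red), DM (orange) and WT (grey) MEFs. Each point is 1 array, with the mean as a horizontal mark and the SD as a bar (n = 3 per genotype), and all 6 genes have TM and DM arrays far above their WT arrays.

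Of the 10 fibroblast markers 4 rose and none fell in TM, and 2 rose and 2 fell in DM against WT, while 5 were higher and none lower in TM than in DM. For these and the marker lists that follow, the shares over all genes were 9.15% in TM and 10.9% in DM against WT. In TM against DM the share was 8.29%. Thy1 rose by 2.93 in TM, with a log2 fold change of -0.25 in DM, Dcn and Pdgfrb rose in both mutants, and Pdgfra and Col1a2 fell by 1.91 and 1.71 in DM. The summed signal of the 10 was 15.77 to 15.79 on the log2 scale in TM, 15.62 to 15.64 in DM and 15.45 to 15.49 in WT arrays. Markers of other cell types differed as well, and in bulk RNA a change in the share of a cell type and a change of RNA per cell cannot be told apart. Of 6 mesothelial markers 4 rose and 1 fell in DM and 2 fell in TM against WT, and all 6 were lower in TM than in DM. Their summed signal was 10.06 to 10.22 on the log2 scale in TM, 13.93 to 14.07 in DM and 12.13 to 12.22 in WT arrays. It was thus highest in DM, as were Cyp1b1, Ahr, Aldh3a1 and Cyp2s1. In TM it was below WT, whereas Cyp1b1 was far above WT there. Of 6 smooth muscle and pericyte markers 3 rose in TM and 1 fell in DM. Their summed signal was 14.91 to 14.95 in TM, 14.04 to 14.17 in DM and 14.10 to 14.19 in WT arrays. It was highest in TM, as were the summed fibroblast signal and Cyp1a1. The part of any cell type in these results was not tested. Of 6 epithelial markers, which share Krt19 with the mesothelial list, 1 fell in TM and 2 rose in DM. Their summed signal was 10.15 to 10.31 in TM, 11.46 to 11.69 in DM and 11.13 to 11.19 in WT arrays, also highest in DM. Of 6 hepatocyte markers 1, Alb, was called lower in each mutant, at 6.44 to 6.56 in TM and 6.11 to 6.16 in DM against 6.54 to 8.04 in WT arrays. Its log2 fold change in TM was -0.74 (adjusted p = 0.0488 from limma), and -0.33 and not called without WT replicate 1. The TM call was also lost without WT replicate 3, without any single TM or DM array, and with the fit of 6 arrays. Neither call held with the methods' t-test. No endothelial or macrophage marker was called, also at an unadjusted p under 0.05 with the fold limit kept.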

How the data were processed

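RNA of TM, DM and WT MEFs was hybridised to Affymetrix Gene ST arrays, 3 of each genotype. Per the study's methods the images were converted with GCOS and analysed in GeneSpring GX with RMA and PLIER, the PLIER values being not analysed here. What the authors deposited is on the log2 scale after RMA, and the submitters' processing notes name RMA without a version. RMA removes differences in total signal between arrays. A genome build for the probe sets was not given in the sources used here.

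Of 35556 probe sets, 21789 have 1 gene symbol, 1621 several and 12146 none, and those with several or none were not named. Gene identifiers matched RefSeq (GRCm38.p6) for 21698. The brightest probe set of each gene over the 9 arrays was kept, which left 19938 genes. A single model of 3 group means (lmFit and eBayes of limma 3.58.1 under R 4.3.3, with 6 residual degrees of freedom) covered the 9 arrays, p-values being adjusted over all genes. Tables were made with Python 3.11.15 and pandas 2.3.3. On simulated data for TM against WT over 19938 genes, 98 of 100 genes raised by 1 and 100 of 100 lowered by 2 on the log2 scale were called, with 0 false calls. The simulated noise was independent and normal, with the SD of arrays within a group. It held no differences between cultures or lines, so the count of false calls says nothing about those. The number of arrays limits the precision.

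The members and lists were chosen with earlier results of these data known. Named were the 8 genes, up to 4 called genes of each list and 6 other P450 genes with the largest changes, the 5 nearest to Cyp1b1, the mutated genes, Xist and markers, and not every one is printed. Others were chosen after their values were seen, as said beside them. Of 81 listed pathway genes 69 were measured, and the others were not analysed here. The alternatives tried were other fold limits, Student's t, fits of 6 arrays, the replicate number as a block, median centring, quantile and cyclic loess normalization, the mean of probe sets, a filter on dim genes, trended and robust variances and leaving out each array.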

Additional observations from a re-analysis of the deposited data

Results flagged for a closer look

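The following genes differed between the mutants themselves, TM against DM, by the limma call used throughout, which is the test of whether their changes against WT differ. Among the AhR genes the log2 fold change in TM against DM was 1.85 for Cyp1a1, -1.13 for Ahr, 0.74 for Tiparp and -0.87 for Aldh3a1. Among the listed pathway genes it was 2.62 for Ptgs2, 1.43 for Ereg, 0.97 for Nqo1, 1.05 for Serpinb2, -1.99 for Cyp2s1, -0.65 for Ncoa1, 3.21 for Sim2, 1.07 for Npas4, 0.94 for Epas1, -1.09 for Cyb5a and -1.16 for Gstm1. Among other P450 genes it was 1.99 for Cyp2j6, 1.21 for Cyp2r1, 0.71 for Cyp4a12b and 0.99 for Cyp7b1. Groups of 3 arrays are too small to look for single outlying arrays.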

How the results depend on the processing

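The counts of calls among the AhR genes other than Cyp1b1, all pathway genes together and the P450 genes were recomputed 252 times, of which 229 stayed within 1.5 times the reported count and 23 did not, all of which came from another fold limit or from leaving out dim genes, where fewer genes are tested. Among the counts of single lists and the single genes, which are not included here, 40 moved, 13 calls were gained, 26 were lost and 9 signs turned. Of the AhR genes other than Cyp1b1, with no fold limit 2 rose and 3 fell in TM against WT. Over 2-fold, 0 fell in TM against WT, 0 rose in DM against WT, and 1 was higher and 1 lower in TM against DM. With genes under the median level left out, 3 of the 7 were tested, of which 0 rose in TM and 1 rose in DM against WT, and 1 was higher and 1 lower in TM against DM. Pathway genes called numbered 31 in TM against WT, 36 in DM against WT and 30 in TM against DM with no fold limit, beside 11, 15 and 11, and 6 and 8 against WT over 2-fold. P450 genes called other than Cyp1b1 numbered 16, 12 and 16 with no fold limit, beside 6, 5 and 6, then 3 and 3 against WT over 2-fold, and 1, 2 and 0 with dim genes left out.

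Near 0 the sign of uncalled values turned. Cyp1a2 in TM against WT was -0.072 with median centring, -0.0023 with quantile normalization and -0.067 to 0.062 with 1 array left out, below 0 without TM replicate 1 (-0.046), TM replicate 2 (-0.0042) or WT replicate 2. In TM against DM and with 1 array left out, Ephx1 was -0.085 to 0.020, above 0 without TM replicate 3 (0.010) or DM replicate 3, Src was -0.12 to 0.055, above 0 without TM replicate 3, and Tbl3 was -0.011 to 0.19, below 0 without DM replicate 2. Leaving out 1 array gave 10 to 11 pathway genes in TM against WT, 15 in DM against WT and 11 to 12 in TM against DM, and 5 to 6, 5 and 6 to 7 P450 genes in the same order. It changed no count of the AhR genes other than Cyp1b1.

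The replicate number as a block changed no count of the AhR genes other than Cyp1b1: 1 rose and 1 fell in TM and 2 rose and 1 fell in DM against WT, and 2 were higher and 2 lower in TM against DM. It gave 11, 15 and 11 pathway genes. The labels do not say whether same-numbered arrays share more than a number. Their deviations from the group means correlated at -0.24 to 0.17, which cannot settle it.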
